A study of Mus musculus with 8 samples.

Results

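The 78 mouse genes described here encode proteins of the mitochondrial ribosome. They were taken by symbol, as every autosomal gene with a RefSeq mRNA whose name starts with Mrpl (large subunit) or Mrps (small subunit) followed by a digit. There were 49 large subunit and 29 small subunit genes among 20021 autosomal genes. Chromatin accessibility in brown adipose tissue (BAT) was measured by ATAC-seq, in which a transposase inserts sequencing adapters into open DNA. The libraries came from 2 WT mice and 2 Dot1L-BKO mice, all kept on chow to 12 weeks of age and killed after 4 h at 4°C. Dot1L-BKO mice lacked the H3K79 methyltransferase Dot1L in Ucp1-expressing cells, through a Ucp1-Cre transgene and floxed alleles, and WT mice were floxed littermates without the Cre. Other cells of the tissue kept the gene. Mice were male unless the study says otherwise, and nuclei of each mouse were processed separately.

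The data were 1 list of 32173 summits, the positions of highest signal in called peaks, in a list named after the 4 libraries. Each summit has a score, the negative log10 of the q-value of its peak. The list gives no value per library, so that read depth was unknown, there was no replicate error, and no comparison of Dot1L-BKO with WT could be made for any gene. The name of each summit sets the WT libraries against the Dot1L-BKO libraries, and the sources used here do not say whether the latter served as background. A score is therefore read as the strength of a call in this list and not as a level in either genotype. Promoter summits were listed for 5 of 5 adipocyte genes looked up (Ucp1, Cidea, Ppargc1a, Pparg and Adipoq), against 46.8% of all autosomal genes. Ucp1 had a score of 33.7 and Cidea 61.5. None was listed for 4 of 4 genes of other cell types (Ptprc, Cd3e, Myod1 and Pecam1). So few genes do not test which cells the tissue held.

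Mitochondrial ribosomes make the few proteins encoded by mitochondrial DNA, all of them subunits of the respiratory chain complexes or of ATP synthase. The ribosomal RNAs come from the mitochondrial genome, whereas every ribosomal protein is encoded in the nucleus, translated in the cytosol and imported. The large subunit forms peptide bonds and the small subunit reads the mRNA. Some of the proteins have bacterial counterparts and others exist only in mitochondria. Brown adipocytes are rich in mitochondria, and promoters of nuclear genes for mitochondrial proteins often hold sites for NRF1, for the ETS factor GABP and for YY1.

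The promoters of several members are shown first, because short sequences for these 3 factors were more frequent in them than in other promoters. Sequences are from RefSeq (build GRCm38.p6, which is mm10), are written 5′ to 3′ on the strand of the gene, and have matches to GCGCATGCG (NRF1), CCGGAAG (ETS/GABP) or AAGATGGC (YY1) on either strand in capitals. The first set covers the 100 bases upstream of the TSS of 5 members with a promoter summit, where none of these bases lies in a RefSeq exon. The stretches are chr13:14613038-14613137 (minus strand) for Mrpl32, chr8:71464826-71464925 (plus strand) for Mrpl34, chr19:45006443-45006542 (minus strand) for Mrpl43, chr1:160195115-160195214 (plus strand) for Mrps14 and chr14:20393635-20393734 (minus strand) for Mrps16. They were picked after the values were seen.
Mrpl32: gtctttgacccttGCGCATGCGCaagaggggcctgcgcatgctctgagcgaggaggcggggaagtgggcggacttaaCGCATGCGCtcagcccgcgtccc
Mrpl34: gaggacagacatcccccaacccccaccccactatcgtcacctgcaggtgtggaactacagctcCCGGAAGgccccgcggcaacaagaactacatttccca
Mrpl43: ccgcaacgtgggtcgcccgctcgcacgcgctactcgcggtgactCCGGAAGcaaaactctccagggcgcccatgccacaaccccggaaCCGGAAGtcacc
Mrps14: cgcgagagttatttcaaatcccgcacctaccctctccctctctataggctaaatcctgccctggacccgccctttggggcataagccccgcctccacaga
Mrps16: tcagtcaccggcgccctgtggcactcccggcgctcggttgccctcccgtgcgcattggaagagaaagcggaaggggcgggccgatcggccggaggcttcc
Mrpl32 held NRF1 matches at 2 places and Mrpl43 held 2 ETS/GABP matches, the upstream of which starts 56 bases before the TSS. Mrpl34 held 1 ETS/GABP match. Mrps14 and Mrps16, with the highest and the fourth highest small subunit score, held none of the 3 in these 100 bases.

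The next set shows the same stretch for 3 members that had no summit within 1 kb, picked because they hold an ETS/GABP match. The stretches are chr9:105053168-105053267 (plus strand) for Mrpl3, chr17:46110904-46111003 (plus strand) for Mrps18a and chr9:98601680-98601779 (minus strand) for Mrps22.
Mrpl3: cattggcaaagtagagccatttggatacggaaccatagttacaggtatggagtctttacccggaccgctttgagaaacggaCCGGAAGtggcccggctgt
Mrps18a: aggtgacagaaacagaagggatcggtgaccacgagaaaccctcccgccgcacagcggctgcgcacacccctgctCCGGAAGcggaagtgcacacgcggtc
Mrps22: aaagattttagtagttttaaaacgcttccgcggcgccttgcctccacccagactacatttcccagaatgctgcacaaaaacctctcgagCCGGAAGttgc
In each the match lay within 30 bases of the TSS. Of 8 members with a promoter sequence and no promoter summit, 4 held no ETS/GABP match. A match is a description of letters, and factor binding was not measured.

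Shorter stretches, of which some bases lie in annotated exons, are given for 3 further NRF1 matches, at chr3:94443299-94443326 (plus strand) for Mrpl9, chr7:105811082-105811107 (minus strand) for Mrpl17 and chr11:58171611-58171639 (plus strand) for Mrpl22.
Mrpl9: ggcgcagctGCGCATGCGCggggtcctt
Mrpl17: cgagttactGCGCATGCGtcctctga
Mrpl22: CCGGAAGccggcctcggactGCGCATGCG
In Mrpl22 the ETS/GABP match and the NRF1 match lay 13 bases apart.

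Summits lay at the promoters of most members. Of 78 members, 67 (85.9%, 95% Wilson interval 76.5 to 91.9) had a summit within 1 kb of a TSS, against 46.8% of all autosomal genes. Within 10 kb, 68 members (87.2%, 78 to 92.9) had a summit, against 55.8% of all genes. With summits of a score of at least 10 only, 40 members (51.3%, 40.4 to 62.1) had one within 1 kb, against 24.5% of all genes. A summit scoring 5 or more was listed for 61 members (78.2%), against 37.5% of all genes. Intervals cover counting over genes only. The members lay on 17 autosomes, with 11 on chromosome 11 and 8 on chromosome 17, and 5 members had more than 1 TSS. No member owed the presence of a promoter summit to a TSS other than the most upstream. The best score of Mrps23, 10.4, did come from its other TSS, and the summit at its most upstream TSS had 2.53.

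**Figure D1:**
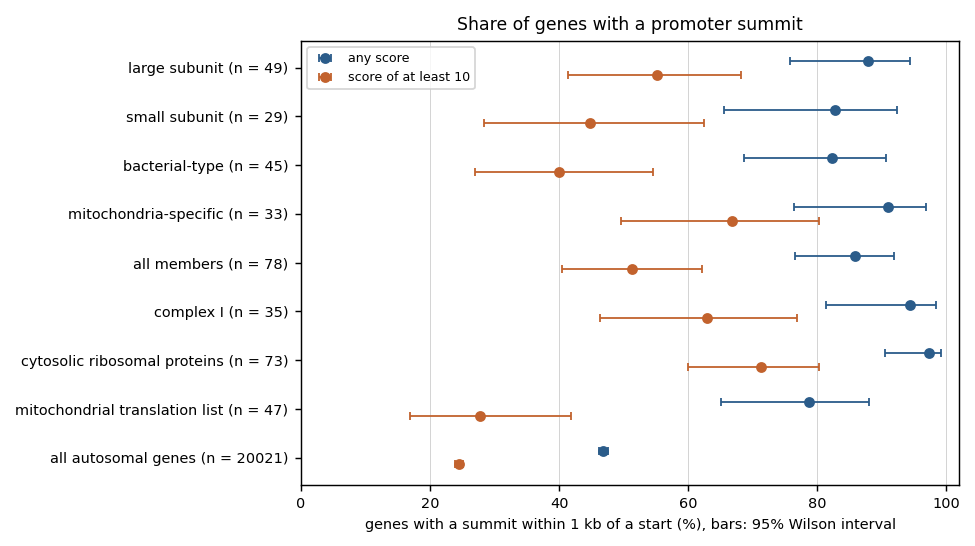
Share of genes with a summit within 1 kb of a TSS, in percent (x axis), for the members, their classes and comparison genes (y axis), for summits of any score (blue) and of a score of at least 10 (orange); bars are 95% Wilson intervals over genes. All members stand at 85.9% for any score and at 51.3% for a score of at least 10, against 46.8% and 24.5% for all autosomal genes.

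The large and the small subunit could not be told apart by these shares. In the large subunit 43 of 49 genes (87.8%, 75.8 to 94.3) had a promoter summit, and in the small subunit 24 of 29 (82.8%, 65.5 to 92.4). The difference was 5.0 percentage points with a 95% Newcombe interval of -10.4 to 23.5. Within 10 kb it was 7.04 points (-8.01 to 25.3), with 44 of 49 large and 24 of 29 small subunit genes. For a score of at least 10, 27 large subunit genes (55.1%) and 13 small subunit genes (44.8%) had one, a difference of 10.3 points (-12.1 to 31.2). These intervals span 0 and reach more than 20 points upward, so that these data allow a sizeable difference. The median best score was 12.2 for the large and 10.2 for the small subunit. Symbols do not always give the subunit, since the proteins of Mrps18a and Mrps30 sit in the large subunit of the mammalian particle, and Mrps36 is now known as a part of the 2-oxoglutarate dehydrogenase complex. With Mrps18a and Mrps30 moved and Mrps36 left out, 44 of 51 large and 22 of 26 small subunit genes had a promoter summit, a difference of 1.66 points (-13.5 to 21.1).

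Members were also split by symbol number into bacterial-type and mitochondria-specific genes. Bacterial-type here means symbols with numbers up to Mrpl36 and Mrps21, and Mrps24. A promoter summit of any score was listed for 37 of 45 bacterial-type genes (82.2%) and 30 of 33 mitochondria-specific genes (90.9%), a difference of -8.69 points (-23.5 to 8.10). A score of at least 10 was reached by 18 of 45 (40%) and 22 of 33 (66.7%), a difference of -26.7 points (-45.5 to -4.25). Median best scores were 9.21 and 14.4. In the large subunit 16 of 21 mitochondria-specific genes (76.2%) reached 10, against 11 of 28 bacterial-type genes (39.3%), a difference of 36.9 points (8.83 to 57.4). In the small subunit the counts were 6 of 12 and 7 of 17, 8.82 points apart (-24.7 to 40.3), and whether the subunits differ in this was not tested. Mrpl47 and Mrps28, both with high scores, have bacterial counterparts under another number. With both moved to the bacterial-type class the difference was -22.0 points (-41.4 to 0.604), an interval that takes in 0.

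Summit scores of the members lay close to those of other genes. The best score within 1 kb had a median of 11.5 over the 67 members (quartiles 7.58 and 17.4, range 2.80 to 58.6). Over all genes with a promoter summit the median was 10.9 (quartiles 5.68 and 20.9). The members' median stood at the 53.1st percentile of these genes. Of the 67, 15 (22.4%) had a summit among the 10% of highest score in the list, against 28.2% of all genes with a promoter summit. The 67 members had 49 distinct best scores. The score 8.65 was shared by 5 members, of which Mrpl46 and Mrps11 have the same summit.

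**Figure D2:**
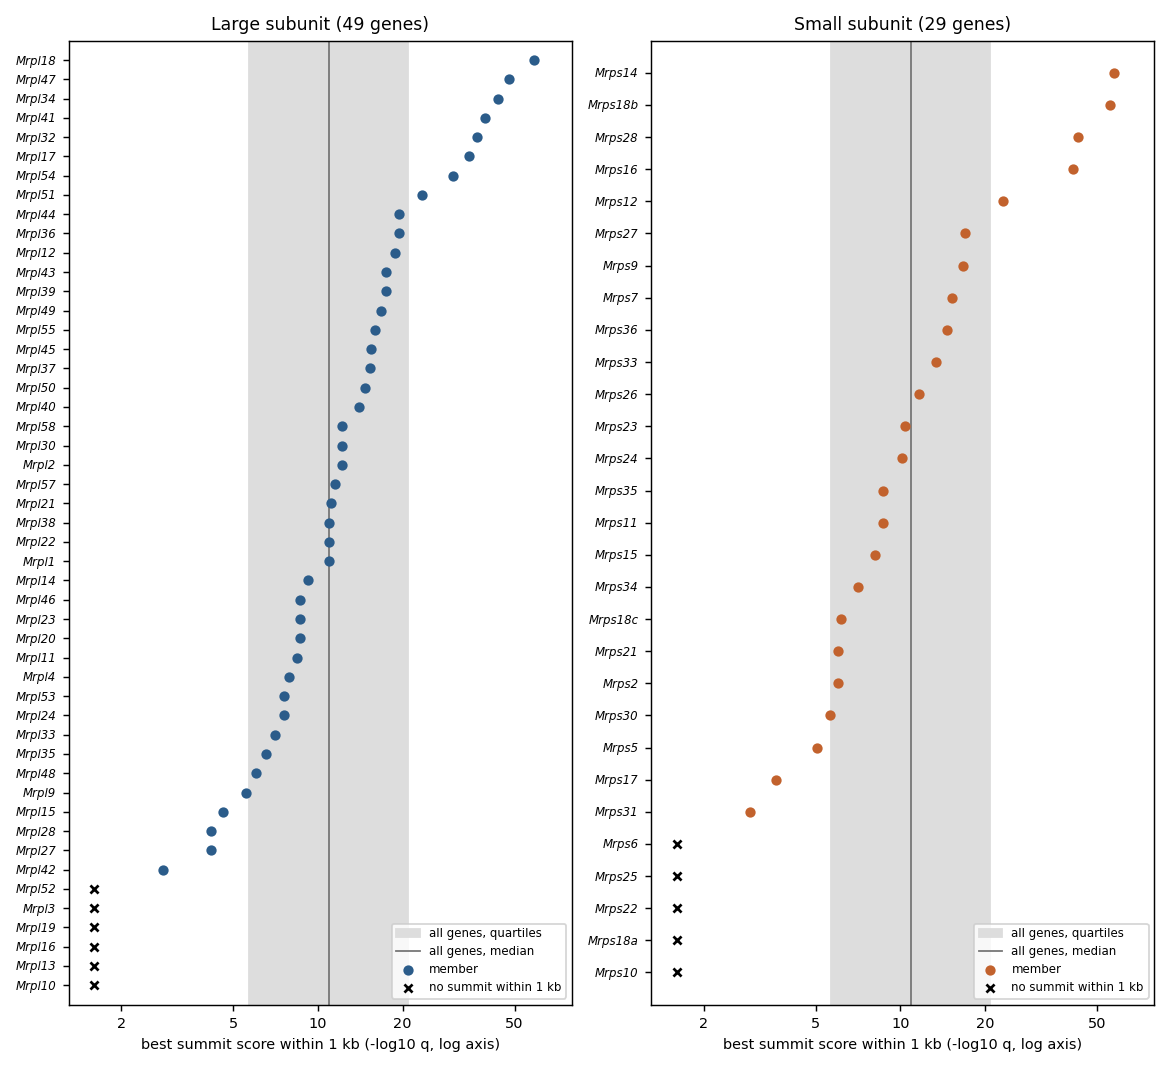
Best summit score within 1 kb of a TSS (x axis, negative log10 q, log scale) for each large subunit gene (left) and small subunit gene (right); crosses mark genes with no summit there, and the grey band and line are the quartiles and median of all genes with a promoter summit. Large subunit scores run from 2.80 to 58.6 and small subunit scores from 2.92 to 57.6, with 6 and 5 genes without a summit.

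In the large subunit, Mrpl18, the counterpart of a bacterial protein that binds 5S rRNA, had the highest score, 58.6. Its summit ranked 349th in the list and lay 142 bp upstream of the TSS, nearer to the TSS of Tcp1, a chaperonin subunit gene on the opposite strand. Mrpl47 followed with 47.6, Mrpl34 with 43.7, Mrpl41 with 39.3 and Mrpl32 with 36.7. Mrpl32, whose protein is matured by the m-AAA protease before it joins the ribosome, shares its start region with the proteasome gene Psma2, and its summit 140 bp upstream lay nearer to Psma2. The upstream stretches printed for Mrpl32 and Mrpl34 lie beside these summits. Of the 5, Mrpl34, Mrpl41 and Mrpl47 had the summit nearest to their own TSS, 170, 13 and 147 bp upstream. The lowest large subunit scores were 2.80 for Mrpl42 and 4.16 for both Mrpl27 and Mrpl28. The summit of Mrpl28 lay 969 bp upstream, near the edge of the window.

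In the small subunit, Mrps14 had the highest score, 57.6, at a summit 59 bp upstream of the TSS that ranked 366th. Mrps18b had 55.7 at 166 bp upstream, Mrps28 had 42.8 at 160 bp downstream, and Mrps16 had 41.0 at 5 bp upstream. Mrps12, whose protein lies at the decoding centre, had 23.1 at 194 bp upstream, nearer to the TSS of Sars2. The lowest were 2.92 for Mrps31, 3.62 for Mrps17 and 5.07 for Mrps5. The 3 genes of the S18 family differed widely. Mrps18a had no summit within 10 kb, Mrps18b had the second highest small subunit score, and Mrps18c had 6.13 at a summit 118 bp upstream that lay nearer to the helicase gene Helq.

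Other members were named for their roles, and their scores ran from 5.61 to 18.8. Mrpl12, whose protein also binds the mitochondrial RNA polymerase, had a score of 18.8 at 85 bp upstream. Mrpl58, a peptidyl-tRNA hydrolase that can free stalled peptides, had 12.2 at 40 bp downstream. Mrps24 had 10.1 in exon 3, 367 bp downstream. Mrps30 had 5.61 at 300 bp downstream, in exon 1, and Mrps36 had 14.7 at 351 bp downstream, in intron 1.

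Best summits lay close to the TSS. The median distance was 120 bp, against 143 bp for all genes with a promoter summit. Of 67, 59 (88.1%) lay within 300 bp, against 76.1% of all genes, and 29 (43.3%) lay within 100 bp, against 38.1%. There were 36 (53.7%) upstream of the TSS, near the 57.4% of all genes with a promoter summit, and 31 downstream. Of those downstream, 22 were in an exon (18 in exon 1) and 9 in intron 1. The best summit of 13 members lay nearer to the TSS of another gene, and this was not counted over all genes.

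**Figure D3:**
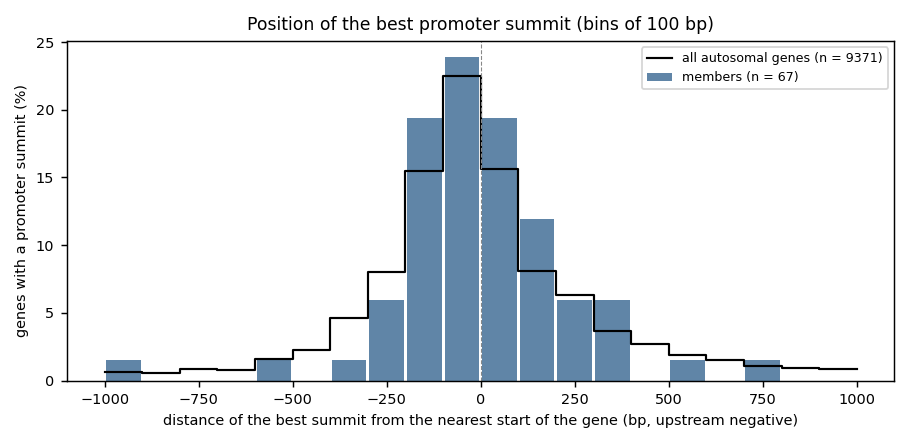
Distance of the best promoter summit from the nearest TSS of the gene in bp (x axis, upstream negative, bins of 100 bp) as a share of genes with a promoter summit (y axis), for 67 members (bars) and 9371 autosomal genes (line). The bars gather around the TSS, with 88.1% of members within 300 bp.

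Members often started beside a gene on the opposite strand. Of 78 members, 27 (34.6%) had a TSS of another gene on the opposite strand within 1 kb, always upstream and head to head, against 10% of all genes, 37.1% of complex I genes and 16.4% of cytosolic ribosomal protein genes. In the large subunit there were 19 of 49 (38.8%) and in the small subunit 8 of 29 (27.6%), a difference of 11.2 points (-10.7 to 30.2). The distances between the starts ran from 32 to 935 bp with a median of 131 bp. The 27 members formed 26 pairs, since Mrpl46 and Mrps11 are partners of each other. The 5 closest pairs were Mrpl21 with Ighmbp2 (32 bp), Mrps34 with Eme2 (33 bp), Mrpl46 with Mrps11 (42 bp), Mrpl27 with Eme1 (48 bp) and Mrpl30 with Mitd1 (66 bp). Eme1 and Eme2 encode partners of the DNA endonuclease Mus81. Among the other partners, picked after the pairs were seen, Twnk (Mrpl43, 116 bp) encodes the mitochondrial DNA helicase, Sars2 (Mrps12, 147 bp) a mitochondrial tRNA synthetase and Ndufb5 (Mrpl47, 308 bp) a complex I subunit.

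Mrpl46 and Mrps11, 1 large and 1 small subunit gene, were the only pair of members that share a promoter. The bases between their starts, chr7:78783090-78783130 (plus strand), are given on the strand of Mrps11.
Mrps11: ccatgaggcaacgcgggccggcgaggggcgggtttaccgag
None of the 3 motifs lies in this stretch. A single summit with a score of 8.65 served both genes, at chr7:78783258, 127 bp downstream of the TSS of Mrps11 and 169 bp upstream of that of Mrpl46.

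Of the 27 members with such a partner, 25 (92.6%) had a promoter summit, and of the other 51, 42 (82.4%) had one, a difference of 10.2 points (-7.65 to 23.9). Over all genes the shares were 89.9% with a partner and 42.0% without. A score of at least 10 was reached by 18 of 27 (66.7%) and 22 of 51 (43.1%), a difference of 23.5 points (0.293 to 42.9) whose lower bound lies close to 0. Over all genes these shares were 63.4% and 20.2%. The best summit lay between the 2 starts in 10 of the 25, a count that was not made for all genes. Mrpl10 (partner Lrrc46) and Mrpl13 (partner Mtbp) were the 2 without a promoter summit. When a summit counted only for the gene of its nearest TSS, 56 members (71.8%) had one, against 43.0% of all genes.

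Summits within 10 kb ranged from none to 11 a member. Exactly 1 summit lay within 10 kb of 37 members (47.4%, against 28.4% of all genes), and 4 or more lay around 12 members (15.4%, against 9.88%). Mrpl54 had the most, 11, followed by Mrpl49 with 10, Mrpl12 with 9, and Mrpl38 and Mrps34 with 7 each. Mrpl43 and Mrpl53 had 6, Mrpl34 and Mrps18b had 5, and Mrpl2, Mrpl55 and Mrps7 had 4. Among 83 pairs of a member and a summit 1 to 10 kb from it, 31 (37.3%) had the summit within 1 kb of the TSS of another gene. In 19 the nearest TSS was the member's own. Neither count was made for all genes. Mrps34 had a score of only 7.05 at its promoter, while a summit 8564 bp upstream, at Spsb3, had 65.4. For Mrpl38 the strongest summit, 23.0, lay 1987 bp upstream, outside the promoter window in which its best score was 10.9. Mrpl54 had its best summit, 30.1, in its own intron 1, and 6 of the 11 lay nearer to other genes.

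**Figure D4:**
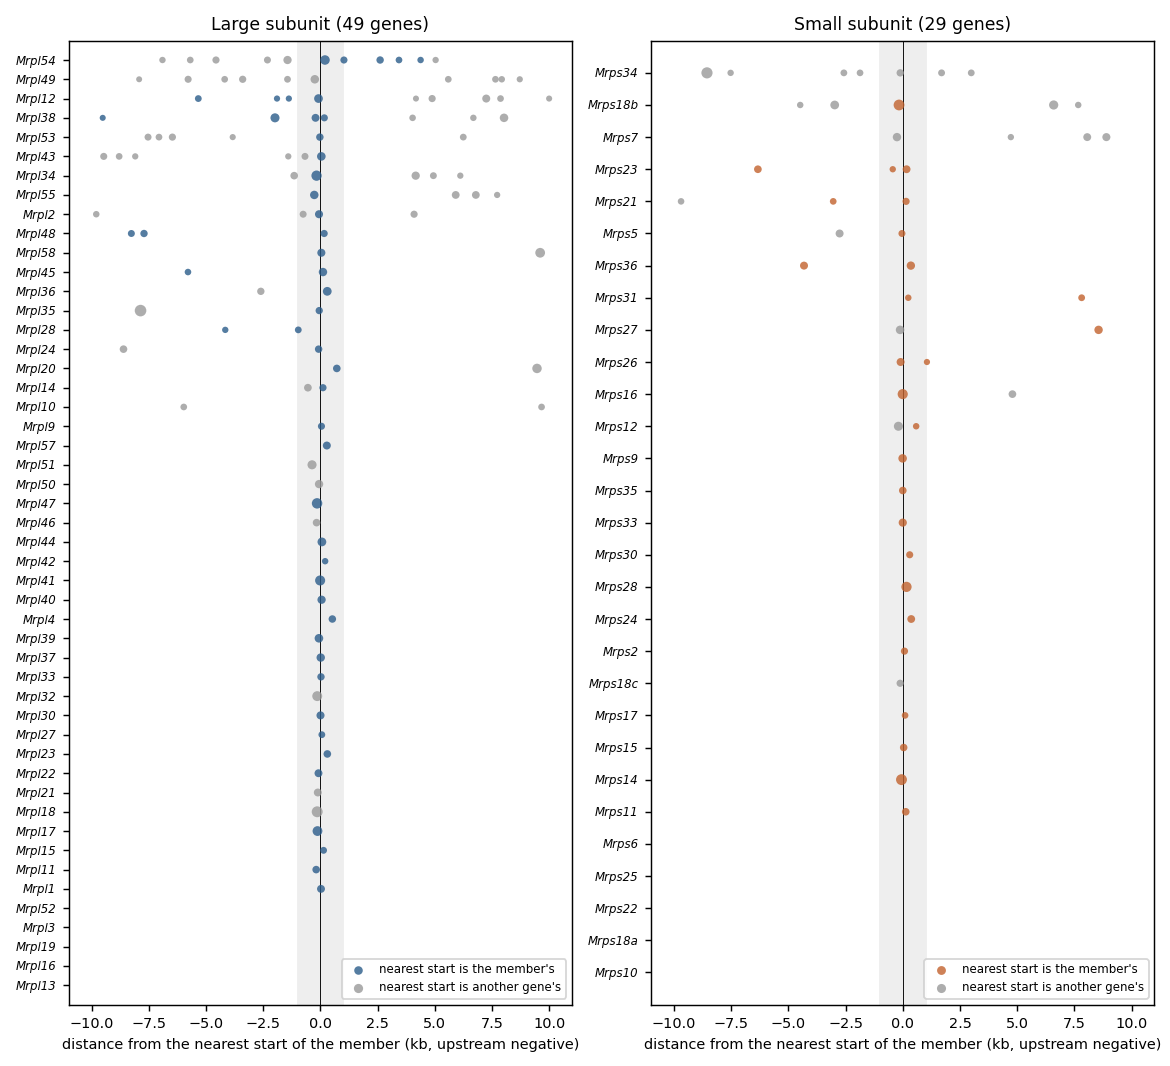
Every summit within 10 kb of a member (x axis, distance in kb from the nearest TSS of that member, upstream negative), 1 row per gene for the large subunit (left) and small subunit (right); larger points have higher scores, coloured points lie nearest to the TSS of the member and grey points nearest to that of another gene, and the grey band is the promoter window. In 37 rows there is a single point, and 10 rows are empty.

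The 11 members without a promoter summit were Mrpl3, Mrpl10, Mrpl13, Mrpl16, Mrpl19 and Mrpl52 of the large subunit and Mrps6, Mrps10, Mrps18a, Mrps22 and Mrps25 of the small. Mrpl3, Mrpl13 and Mrpl16 belong to the conserved core of the large subunit, Mrpl10 to its stalk, and Mrps22 and Mrps25 are found only in mitochondria. Of the 11, 10 (90.9%) had none within 10 kb either, against 83.1% of all genes without a promoter summit. Mrpl10 was the exception, with 2 summits of a score of 3.75, the nearer 5976 bp upstream. The nearest summit of Mrpl13, at chr15:55534095-55557312, was 276629 bp away, that of Mrpl16, at chr19:11770415-11774956, was 141803 bp away, and that of Mrps25, at chr6:92169512-92184023, was 91729 bp away. The closest, apart from Mrpl10, were those of Mrpl52 (14619 bp upstream), Mrpl19 (21464 bp upstream) and Mrps10 (26178 bp downstream).

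The stretches without a summit around these members were no longer in the median than those of other genes without a promoter summit. The distance between the summits on either side of them ran from 15.6 kb (Mrpl10) to 1412 kb (Mrpl13), with a median of 169 kb. The same distance for all 10622 genes without a promoter summit that lie between 2 summits had a median of 258 kb, and for those 1999 with CpG-rich promoters 180 kb. Other genes started in the stretch in 9 of the 11 cases, 34 genes in all. A gene in such a stretch can have a promoter summit only through a TSS within 1 kb of an edge or through another TSS outside the stretch, and 4 of the 34 had one. Around Mrpl16 there were 12, among them olfactory receptor and Ms4a genes. Around Mrps22 there were 6, Foxl2 among them.

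Most members with a promoter sequence had a CpG-rich promoter, both among those with a promoter summit and among those without. Promoter sequence (250 bases before to 50 after the TSS) was at hand for 67 of 78 members, at the most upstream TSS. The median GC content was 58.0%, against 57.0% for all promoters. A ratio of observed to expected CpG of at least 0.6 was found in 61 of 67 (91.0%), against 51.0% of all promoters. Of the 61, 54 (88.5%) had a summit, against 74.9% of all genes with CpG-rich promoters. Of 8 members with a sequence and no promoter summit, the ratio ran from 0.575 (Mrps18a) to 0.989 (Mrpl10).

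Of 10 short motifs searched on both strands, 4 were more frequent in members than in all 15656 promoters, and than in the 7503 of genes with a promoter summit, beyond the interval of the members' share. CCGGAAG (ETS/GABP) was in 24 of 67 promoters (35.8%, 25.4 to 47.8), against 12.6% of all promoters and 21.2% of those with a summit. AAGATGGC (YY1) was in 12 (17.9%, 10.6 to 28.7), against 3.29% and 5.14%. GCGCATGCG (NRF1) was in 7 (10.4%, 5.15 to 20), against 2.55% and 4.53%. The looser TGCGCA, which can overlap the NRF1 letters, was in 20 (29.9%, 20.2 to 41.7), against 10.4% and 16.7%. At least 1 of NRF1, ETS/GABP and YY1 was in 36 promoters (53.7%), against 17.2% of all. At least 2 were in 7 (10.4%), which was not counted over all promoters and so cannot be set against them. The same 8 members without a promoter summit held YY1 in 1 and NRF1 in 1.

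GGGCGG (SP/KLF) was in 33 members (49.3%, 37.7 to 60.9), against 48.4% of all promoters and 69.1% of those with a summit, the latter above the members' interval. It was in 16 of 43 large subunit promoters (37.2%) and 17 of 24 small subunit promoters (70.8%), a difference of -33.6 points (-52.8 to -8.66). This was the largest difference between the subunits over the 10 motifs compared, the intervals of the other 9 spanned 0, and no allowance was made for looking at 10. CCAAT (NF-Y, 38.8%), TGACGT (CRE, 8.96%), CACGTG (E-box, 7.46%) and AAGGTCA (ERR, 5.97%) were in members about as often as in all promoters (39.2%, 8.97%, 8.14% and 3.92%). TATAAA was in 5.97% of members (2.35 to 14.4) and 13.4% of all promoters, which lies within the members' interval.

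**Figure D5:**
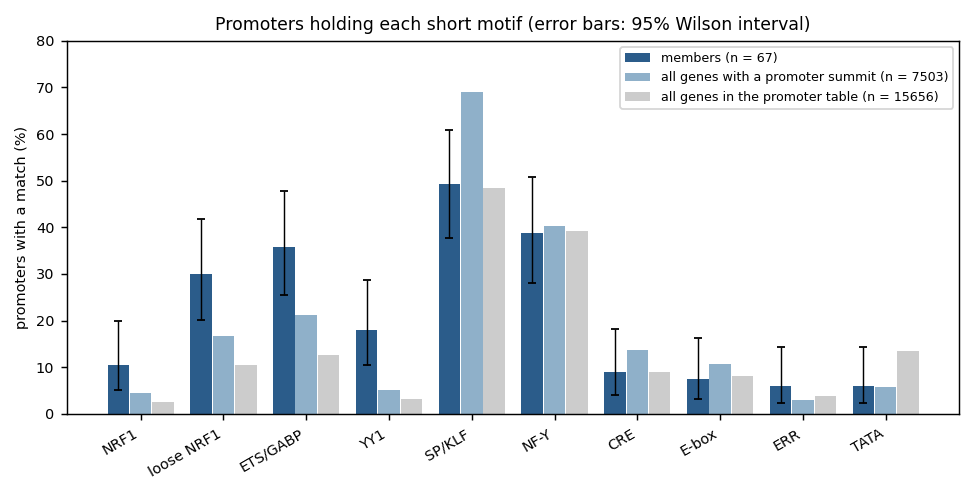
Share of promoters in percent (y axis) that hold each of 10 short motifs (x axis), for 67 members with their 95% Wilson interval, 7503 genes with a promoter summit and all 15656 genes of the promoter table. ETS/GABP stands at 35.8% in members against 21.2% and 12.6%, and SP/KLF at 49.3% against 69.1% and 48.4%.

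Of 12 YY1 matches, 8 (66.7%) lay on the strand of the gene with their first base 11 to 36 bases downstream of the TSS, and the other 4, of Mrpl32, Mrpl36, Mrps11 and Mrps12, lay upstream on the opposite strand. Among all 515 promoters with the motif, 188 (36.5%) had it on the strand of the gene 10 to 40 bases downstream. This window was set after the positions in members were seen, so that the shares cannot be compared fairly. These 8 are printed with 8 bases on each side (fewer where the promoter sequence ends), with the YY1 letters in capitals, to show how far they share the surrounding bases. The stretches are chr6:71823746-71823769 (minus strand) for Mrpl35, chr4:107066825-107066848 (minus strand) for Mrpl37, chr10:95501907-95501930 (minus strand) for Mrpl42, chr19:6057724-6057747 (minus strand) for Mrpl49, chr11:115604150-115604173 (plus strand) for Mrps7, chr17:46111007-46111030 (plus strand) for Mrps18a, chr11:5707652-5707673 (minus strand) for Mrps24 and chr13:99344792-99344815 (plus strand) for Mrps27.
Mrpl35: caggctgcAAGATGGCggcttcca
Mrpl37: cacgggcaAAGATGGCggcgtcca
Mrpl42: attgaagcAAGATGGCgagcgcgc
Mrpl49: gaggcgccAAGATGGCagcagcgg
Mrps7: cagcggccAAGATGGCtgcccccg
Mrps18a: tgcgttccAAGATGGCggccctca
Mrps24: gccggcccAAGATGGCgtggtc
Mrps27: tgcgctccAAGATGGCggctccca
In 6 of the 8, Mrpl35, Mrpl49, Mrps7, Mrps18a, Mrps24 and Mrps27, the ATG inside the match is the annotated start codon, and so it was in 124 of the 188. Of 28 ETS/GABP matches, 24 (85.7%) began within 60 bases of the TSS, against 63.4% of 2393 matches in all promoters, a distance also set after the positions were seen.

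Members had promoter summits less often than cytosolic ribosomal protein genes. Of 73 cytosolic ribosomal protein genes, 71 (97.3%) had a promoter summit, 11.4 points above the members (the difference of members minus cytosolic was -11.4, -21.0 to -2.33). At a score of at least 10 the shares were 51.3% and 71.2%, a difference of -20 points (-34.2 to -4.39). For 35 complex I genes, of which 33 (94.3%) had a promoter summit, the difference was -8.39 points (-18.7 to 5.85) for any score and -11.6 points (-29.3 to 8.15) for a score of at least 10.

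Other genes of mitochondrial translation were chosen by role. Of 47 such genes, 37 (78.7%, 65.1 to 88.0) had a promoter summit, against 46.8% of all genes. A score of at least 10 was reached by 13 (27.7%, 16.9 to 41.8), near the 24.5% of all genes. Among ribosome proteins with other names, Dap3 had a score of 8.65, Ptcd3 8.12, Aurkaip1 7.58 and Chchd1 6.02, while Gadd45gip1 had no summit within 1 kb and 5 within 10 kb. Of 16 translation factors, 12 had a promoter summit. The 4 without were Mtif3 (initiation), Gfm1 (elongation), Mtrf1 (release) and Slirp (mRNA stability). The release factor gene Mtrf1l had the highest score of the list, 115, at 298 bp upstream. Of 26 assembly factors, 21 had a promoter summit, and Mterf4, Eral1, Rbfa, Mettl15 and Mrm2, which act on ribosomal RNA or its assembly, had none.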

How the data were processed

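Nuclei of BAT from 2 mice of each genotype were profiled by ATAC-seq. The submitters' processing notes name cutadapt, BWA, MACS2 2.1.1 and the mm10 build. The deposited list holds 1 position per peak and a −log10 q-value that the authors obtained from MACS2, with peaks kept up to a q-value of 0.05 and from 2.0-fold enrichment. It is a single list named after the 4 libraries, with no values per library, so that depth was unknown and no genotype or replicate was compared. Read shifting for the transposase and handling of multi-mapped reads are not given in the sources used here. RNA-seq of the same groups was not used here.

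Summits were assigned to TSSs of RefSeq mRNAs on build GRCm38.p6 with Python 3.11.15, pandas 2.3.3 and numpy 2.4.6, within 1 kb and 10 kb. Shares have 95% Wilson intervals and differences Newcombe intervals. No p-value was computed. Functions were tested on simulated summits. Promoter sequences came from the RefSeq table of the same build, and 11 of 78 members had no sequence at the most upstream TSS. Named members were those without a promoter summit, the 5 highest and 3 lowest scores per subunit, 9 chosen by role, those with 4 or more summits within 10 kb, and the 5 closest head-to-head pairs, with exceptions marked. Members and lists were chosen with earlier results of these data known. Alternatives changed the score minimum, window, TSS choice and treatment of shared promoters.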

Additional observations from a re-analysis of the deposited data

How the results depend on the processing

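The count of members with a promoter summit was 40 with scores of at least 10 and 42 without genes that have an opposite-strand TSS within 1 kb (42 of 51, 82.4%); within 10 kb these counts were 44 and 42. Fewer summits and fewer genes enter by construction. Under the other alternatives it ran from 50 (1 kb upstream to 100 bp downstream) to 67, and the median score from 10.2 to 16.7 over all alternatives. The difference between large and small subunit ran from -1.13 points with a 500 bp window (interval -17.3 to 18.1) to 10.5, and each of its intervals spanned 0. No paired analysis was possible because values per library are absent from the summits, and no library could be left out for the same reason.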
